A study of Mus musculus with 8 samples.

Results

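Committed oligodendrocyte precursors (COPs) are the cells between a dividing oligodendrocyte precursor cell (OPC) and a myelinating oligodendrocyte (OL). They were described here in single-nucleus RNA-sequencing (snRNA-seq) of the adult mouse optic nerve (ON). Nuclei were chosen by a rule on their own unique molecular identifiers (UMIs, 1 per captured RNA molecule). A COP nucleus had at least 4 UMIs in *Gpr17*, *Bmp4*, *Neu4* and *Enpp6* together, at least 2 of these genes detected, at least 1 UMI of *Sox6*, none of the fibroblast gene *Dcn*, and under 3 UMIs of the endothelial genes *Flt1* and *Ptprb*. Of 40845 nuclei with at least 1000 UMIs and under 5% mitochondrial UMIs, 328 met it, which was 0.803% of all nuclei and 1.86% of the 17620 nuclei of the OL lineage. The neighbours in the lineage were 1143 OPC-like nuclei (at least 1 UMI of *Pdgfra* and under 3 of *St18*) and 16149 OL-like nuclei (at least 3 UMIs of *St18*). None of these were COPs, and all met the same limits on *Dcn*, *Flt1* and *Ptprb*.

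The 8 libraries came from mice at postnatal day 120, each from 6 pooled ONs. The 4 control libraries (replicates 1 to 4) were from *Piezo2*f/f mice, which carry the floxed *Piezo2* alleles without cre. The 4 cKO libraries (replicates 10 to 13) were from *Olig2-cre;Piezo2*f/f mice, in which cre is driven by *Olig2*, a gene active from the early OL lineage onward and also in some other neural cells. Cre is knocked into *Olig2* itself, so the cKO mice also carry only 1 intact *Olig2* allele and the genotypes differ at 2 genes. Both groups carry the same floxed alleles, and each library is a pool, so that animals within a library cannot be told apart.

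The OPC is the proliferating, *Pdgfra*-bearing progenitor of the adult optic nerve. On its way to an OL it loses the PDGF receptor and the proteoglycans of the precursor, passes through a short stage marked by the orphan receptor GPR17, and then switches on adhesion, cytoskeletal and finally myelin genes. *Gpr17* encodes a G protein-coupled receptor that times this step, *Neu4* a sialidase, *Bmp4* a secreted ligand of the BMP family and *Enpp6* a choline phosphodiesterase that appears as the cell becomes a young OL. *Sox6* encodes a transcription factor of precursors.

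Over all barcodes the libraries held 39628926 to 48784051 UMIs in the control group and 43625290 to 56541132 in the cKO group. *Piezo2*, the targeted gene, was not lower in the libraries labelled cKO. In OL-like nuclei it was 408.3 ± 55.5 CPM (summed counts scaled to the same total in every sum) in control and 505.5 ± 20.9 CPM in cKO libraries (SD, n = 4 each), a log2 fold change of 0.31 (SE 0.113) that did not pass (edgeR adjusted p = 0.527). Counts over the whole gene need not fall when floxed exons are lost, so they leave the labels unchecked, and the group is called by its label. Across all libraries 188 of 40657 distinct barcodes occurred in more than 1 library. Of the members 4 carried such a barcode, and no barcode was shared between members.

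COP nuclei were deep and mixed. Their median was 6487 UMIs and 3056.5 genes, against 3067 UMIs in OPC-like, 2935 in OL-like and 2995 in astrocyte-like nuclei (under the same limits, at least 3 UMIs in 2 or more astrocyte markers, no *Pdgfra* and under 3 UMIs of *St18*). A fixed UMI minimum is met more easily by a deep nucleus, and by a droplet that holds more than 1 nucleus. Markers of another cell type (at least 3 UMIs in at least 2 of its genes) were found in 180 members (54.9%), with 94 flagged for astrocytes, 92 for fibroblasts, 76 for myeloid cells, 23 for neurons, 23 for pituitary, 13 for mural cells, 2 for endothelial cells and 1 for T cells. The Scrublet doublet caller, set to mark the top 0.8% of nuclei for each 1000 in a library, marked 55 members (16.8%), against 4.99% of OPC-like and 5.60% of OL-like nuclei. One or the other flag stood on 188 members (57.3%), on 61.2% of OPC-like and on 24.5% of OL-like nuclei. The part of doublets in the results below was not tested beyond the recomputed values given.

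The rule asked for neither *Pdgfra* nor *St18*, and with these genes the members fell into 4 classes (chosen after the values were seen, so they are described and not tested). *Pdgfra* alone was found in 97 members, *St18* (at least 3 UMIs) alone in 90, both in 129 and neither in 12. Every library held the first 3 classes, as the plot of members by library shows, though control 1 had 1 nucleus with *Pdgfra* alone. The class with both genes was the deepest, with a median of 9595 UMIs, against 4376 with *Pdgfra* alone and 6389.5 with *St18* alone. Scrublet marked 28.7% of it, 1.03% of the *Pdgfra* class and 18.9% of the *St18* class. Of its 129 nuclei 44 came from cKO 11.

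**Figure D1:**
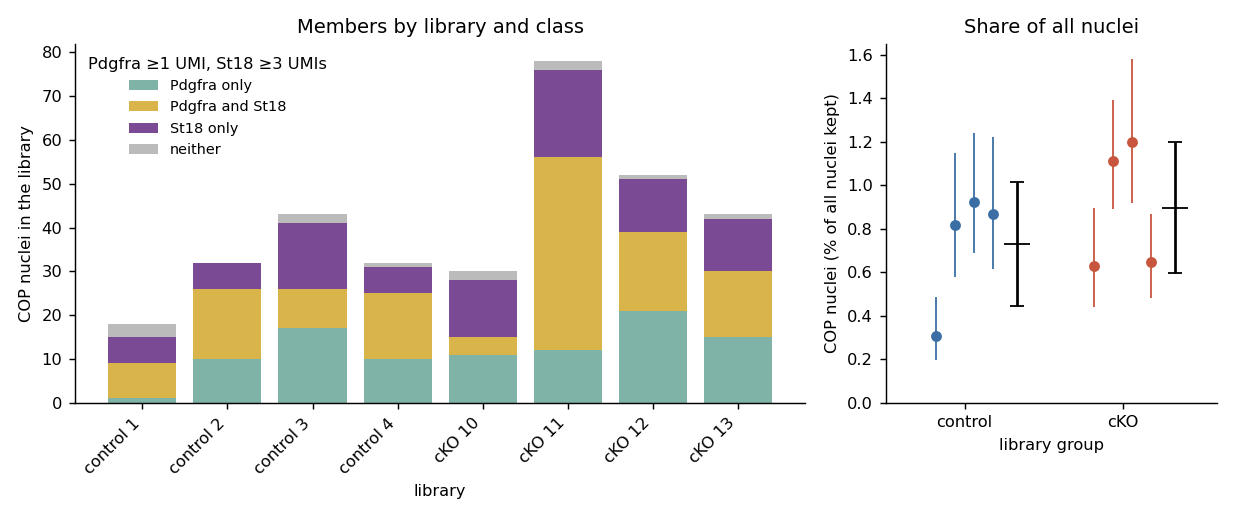
Left, number of COP nuclei in each library (x axis), with bars stacked by class (*Pdgfra* at least 1 UMI, *St18* at least 3 UMIs). Right, COP nuclei as percent of all nuclei kept, 1 point for each library with its Wilson 95% interval, and beside the points the mean ± SD of the 4 libraries of a group. The lowest library was control 1 with 18 members (0.308%) and the highest count was in cKO 11 with 78.

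The genes that chose the members divided between these classes, and are given as a description since the rule used them. In the *Pdgfra* class *Neu4* stood at 584.3 CPM and *Gpr17* at 426.3 CPM of the pooled counts, while *Enpp6* was at 82.2 CPM and *Bmp4* at 30.3 CPM. In the *St18* class *Enpp6* was at 667.3 CPM, *Gpr17* at 402.3 CPM, *Neu4* at 189.6 CPM and *Bmp4* at 170.2 CPM. The class with both genes had 281.1 CPM of *Enpp6*, 171.9 CPM of *Neu4*, 109.2 CPM of *Gpr17* and 37.9 CPM of *Bmp4*. Astrocyte-like nuclei, which should lack these genes, gave 2.88 CPM of *Gpr17*, 1.87 CPM of *Neu4*, 21.1 CPM of *Bmp4* and 41.3 CPM of *Enpp6*. OL-like nuclei had 398.8 CPM of *Enpp6*, above the class with both, but 4.23 CPM of *Gpr17* and 7.98 CPM of *Bmp4*. OPC-like nuclei had 48.9 CPM of *Bmp4*, above the *Pdgfra* class, and 41.4 CPM of *Gpr17*. At least 3 UMIs in the 4 genes were found in 3429 of the 16149 OL-like nuclei. All 4 genes were detected together in 34 of the 90 members with *St18* alone, in 14 of the 129 with both and in 1 of the 97 with *Pdgfra* alone.

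**Figure D2:**
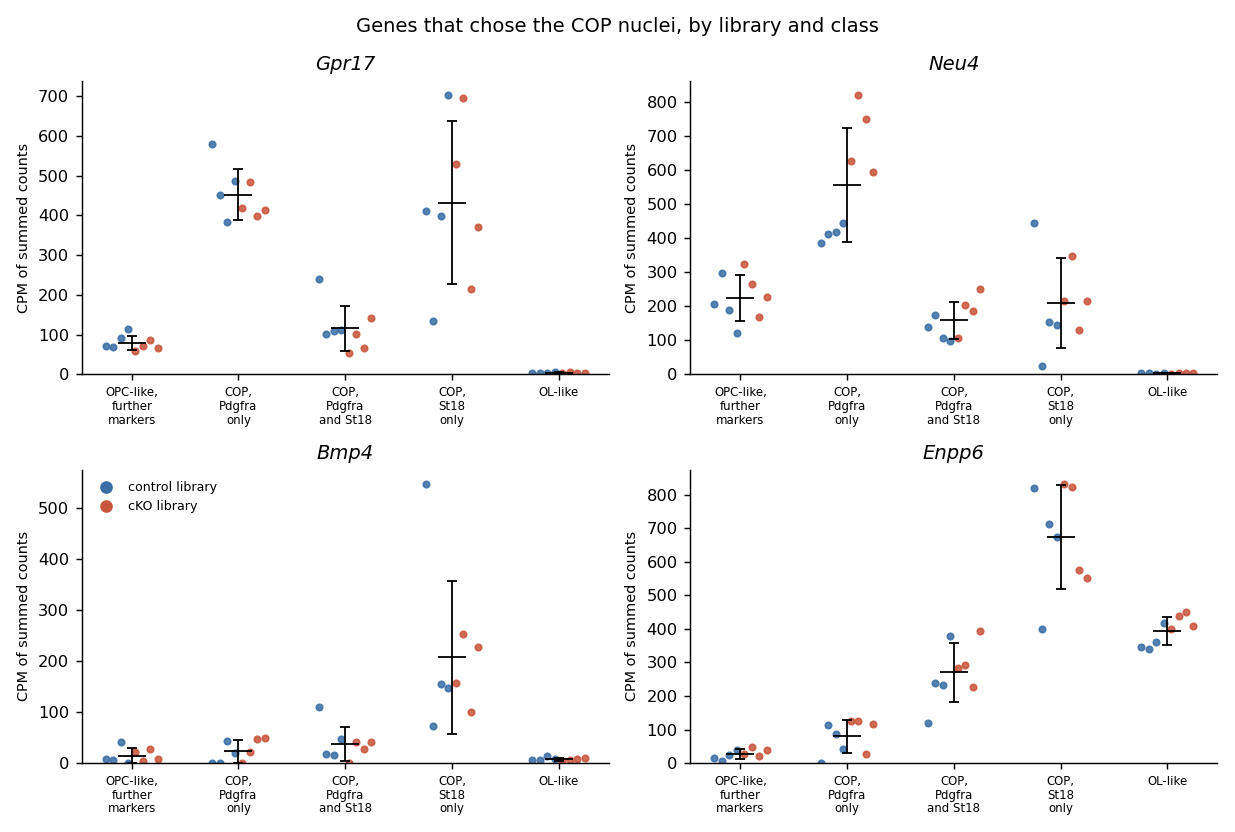
CPM of the summed counts (y axis) of the 4 genes that chose the COP nuclei, in OPC-like nuclei with further OPC markers, 3 classes of COP nuclei and OL-like nuclei (x axis). Each point is 1 library (n = 8) and the bars are the mean ± SD. *Neu4* is high where *Pdgfra* is present alone, and *Enpp6* and *Bmp4* are highest where *St18* is present alone. *Gpr17* is high in both of these classes. The *Pdgfra* class of control 1 is 1 nucleus.

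At the edge of the rule, 72 members had exactly 4 marker UMIs and 87 nuclei that met all other limits had 3. *Fyn* stood at 288.6 CPM in the former and 215.3 CPM in the latter, *Bcas1* at 632.1 and 594.3 CPM, and *Mbp* at 1828 and 1546 CPM, so the values ran on across the threshold. Members with at least 9 marker UMIs (93 nuclei) had 1313 CPM of *Fyn* and 2016 CPM of *Bcas1*. Before the last limits 820 nuclei had the 4 marker UMIs in 2 genes, and 512 of them had *Sox6*.

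The OPC-like neighbours were mixed as well. At least 3 UMIs in 2 or more of *Cspg4*, *Lhfpl3*, *Megf11*, *Pcdh15* and *Vcan* were found in 571 of the 1143, and 322 of the rest carried UMIs of astrocyte markers. *Pdgfra* is also a gene of fibroblasts. Comparisons with OPC-like nuclei are therefore given a second time, where stated, with the 571 nuclei alone, called OPC-like with further markers. In that fit those 5 genes got no test. The same markers were present in 312 of the 328 COP nuclei (95.1%).

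COP nuclei were first compared with OPC-like nuclei, which unlike the members were limited to under 3 UMIs of *St18*. Young OL and myelin genes were higher, and the genes that fell most were not on the OPC list and included genes known from fibroblasts. Counts were summed over the nuclei of each group in each library and tested with edgeR's quasi-likelihood test with the library as a block, so that n = 8 pairs of sums. Calls needed an adjusted p below 0.05 together with a log2 fold change beyond 0.5 in either direction. Of 7757 genes tested 1021 were called higher (13.2%) and 1148 lower (14.8%). Against OPC-like nuclei with further markers 824 of 5792 were higher (14.2%) and 861 lower (14.9%). Sums over nuclei do not tell fewer nuclei expressing a gene from less RNA in each.

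*Bcas1*, which marks newly formed OLs, was among the genes that rose. Its level in COP sums was 2338, 856.2, 1295 and 1200 CPM in controls 1 to 4 and 1673, 1180, 915 and 1520 CPM in cKO 10 to 13. OPC-like sums averaged 269.1 ± 64.6 CPM (SD, n = 8) and did not overlap with these. The log2 fold change was 2.39 (SE 0.12, edgeR adjusted p = 4.12e-15), and 1.54 with the further markers. Of the 23 genes listed for newly formed OLs 16 were tested and 13 were higher, with none lower and a median log2 fold change of 1.56, where all genes tested had -0.01. With the further markers it was 12 of 15, median 1.40 against 0.02 over all genes. The risers included *Fyn*, a Src family kinase of OL process outgrowth (2.34), *Nkain1* (2.53), *Tns3*, a focal adhesion protein (1.32), and *Tcf7l2*, a transcription factor of the Wnt pathway that young OLs need (0.59). Another of the 13, *Lims2*, overlaps *Gpr17* on the other strand, a gene that chose the members, so its rise is tied to that choice and supports nothing. OPC-like nuclei were limited to under 3 UMIs of *St18* and the members were not, so that limit bears on this list too. *Nkain1*, for one, was lower than in OL-like nuclei.

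Myelin and mature OL genes were higher in 24 of 31 tested, with 1 lower and a median of 1.24. At least 3 UMIs of *St18*, an OL gene barred at that level in OPC-like nuclei, were found with *Pdgfra* in 129 members and without it in 90. The count is thus tied to the group limits and is not read as a gain on commitment. *Mbp*, encoding myelin basic protein, was 2193 ± 300 CPM in COP and 574.3 ± 181 CPM in OPC-like sums, and its log2 fold change was 2.04 (SE 0.11). *Prr5l*, encoding a partner of the mTORC2 kinase complex, rose by 3.09 and *Mog* by 2.00 on the log2 scale. The 1 that fell was *Ptgds* (-1.69), which is also high in meningeal fibroblasts, and with the further markers it was at -0.32 and not called. In astrocyte-like nuclei *Mbp* stood at 529.5 CPM, close to the 515.4 CPM of OPC-like nuclei with further markers. The low *Mbp* level of precursors was thus as high in a cell type that makes no myelin. The *Pdgfra* class lay there too, with 558.3 CPM of *Mbp*.

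OPC genes gave a different picture under the 2 choices of neighbour. Against all OPC-like nuclei 4 of 23 were higher (*Sema5a*, *Tnr*, *Opcml* and *Lrrtm3*), 1 lower (*Ntn1*, encoding netrin 1) and the median was -0.14. The count of higher genes is near the 13.2% over all genes and is no result about the list. Against those with further markers 14 of 18 were lower and 1 was higher, with a median of -0.90. *Ptprz1*, a receptor phosphatase of precursors, was 1020 ± 83.6 CPM in COP and 2295 ± 223 CPM in those OPC-like sums, without overlap, and fell by 1.17 on the log2 scale (SE 0.087). *Dscam*, *Nxph1*, *Xylt1* and *Cacng4* were among the others that fell. Those OPC-like nuclei all carried *Pdgfra* and OPC markers, while 90 members had *St18* without *Pdgfra* and 12 had neither. The count is thus tied to the group limits and is not read as a loss on commitment. *Dscam*, for one, pooled to 2599 CPM with *Pdgfra* alone, 837.4 CPM with *St18* alone and 942.6 CPM with both. The OPC-like nuclei with further markers had 2335 CPM. *Sema5a*, encoding a semaphorin, was the exception in both fits at 1.53 and 1.07.

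The 12 largest falls against OPC-like nuclei were *Trpm3*, *Bmp6*, *Slc6a20a*, *Slc6a13*, *Slc7a11*, *Col25a1*, *Col5a2*, *Ranbp3l*, *Epha3*, *Rai14*, *Cped1* and *Igfbp2*. Several of these are known from meningeal fibroblasts. The fibroblast markers tested were lower in 5 of 5 cases and the astrocyte markers in 6 of 6. Summed over the list of 7, fibroblast markers stood at 235.2 to 960.3 CPM in control COP sums and 978.5 to 1518 CPM in cKO COP sums. *Trpm3* held most of this sum in the cKO libraries and in control 3, and without it (chosen after its values were seen) the ranges overlapped at 152.2 to 306.5 and 240.4 to 494.9 CPM. *Dcn*, which the rule bars, was the 1 of the 7 at 0. Against OPC-like nuclei with further markers 1 of 3 fibroblast markers (*Sdk1*) and 1 of 6 astrocyte markers (*Slc1a2*) were lower. *Trpm3* then had a log2 fold change of -0.17 (edgeR adjusted p = 0.709) in place of -3.03. *Cped1* turned from a fall to 0.19, not called.

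The 12 largest rises against OPC-like nuclei were led by long noncoding RNAs: *9530059O14Rik* (4.49), *Gm45600*, *9130019P16Rik*, *4930420G21Rik* and *Gm13187* (3.57). *Gm45600* lies inside *Enpp6* on the other strand, a gene that chose the members, so its rise is tied to that choice and supports nothing. The protein-coding ones were *Galnt5* (3.38), encoding an enzyme of O-glycosylation, and *Slc24a2* (3.38), encoding a sodium, calcium and potassium exchanger. *Slc24a2* was 2324 ± 437 CPM in COP, 239.1 ± 103 CPM in OPC-like and 5277 ± 608 CPM in OL-like sums. The COP level is an average over unlike classes, which pooled to 313.8 CPM with *Pdgfra* alone, 2262 CPM with *St18* alone and 3109 CPM with both.

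Against OL-like nuclei, COP nuclei were higher on nearly all OPC genes and lower on nearly all myelin genes. OL-like nuclei were set by at least 3 UMIs of *St18*, while 226 members carried *Pdgfra* and the rule asked for the precursor gene *Sox6*. These directions are thus tied to the group limits and are not read as steps of commitment. Of 13281 genes tested 1954 were called higher (14.7%) and 1713 lower (12.9%). The balance turned with the processing. It was 1385 higher and 2087 lower without the flagged members, where the neighbours kept their flagged nuclei. With nuclei thinned to 1000 UMIs it was 724 and 1309, and with members without *Pdgfra* 957 and 1518. By DESeq2 it was 2534 and 1306. This comparison shares the COP sums with the one above, so the calls are not independent of it. Of the 24 OPC genes 23 were higher, with a median log2 fold change of 3.51 where all genes had -0.07. *Vcan*, the proteoglycan versican, was 838.1 ± 167 CPM in COP against 22.5 ± 8.57 CPM in OL-like sums (log2 fold change 5.15, SE 0.16, edgeR adjusted p = 8.47e-22). *Tnr*, encoding tenascin R (5.03), *Myt1*, encoding a zinc finger factor of precursors (5.08), and *Lgr5*, encoding an R-spondin receptor (5.17), behaved alike. The other large rises were *Gm13187*, *Gm36988*, *Inava*, *Susd5*, *A930009A15Rik*, *Csmd1*, *Sema5b* and *Arpp21*.

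Myelin and mature OL genes were lower than in OL-like nuclei in 31 of 32, with a median of -1.08. *Mbp* was 4272 ± 250 CPM in OL-like sums, and COP sums ranged from 1780 to 2555 CPM, a log2 fold change of -1.05 (SE 0.079). The COP level is an average over unlike classes. They pooled to 558.3 CPM with *Pdgfra* alone, 2658 CPM with *St18* alone and 2564 CPM with both. *Klk6*, encoding a serine protease of mature OLs, was lower by 1.41 and *Il33*, encoding the alarmin interleukin 33, by 1.32 on the log2 scale. Newly formed OL genes went the other way: 14 of 21 tested were higher, 2 lower (*Nkain1* and *Arap2*), with a median of 1.08. The list again holds *Lims2*, at 3.78-fold of the OL-like level, which is tied to the choice of members and supports nothing. *Itpr2*, an IP3 receptor that marks newly differentiated OLs, was 587.9 ± 349 CPM in COP and 53.0 ± 7.22 CPM in OL-like sums (3.22). Its COP levels ran from 304.1 CPM in control 2 to 1377 CPM in control 1, all above the OL-like sums. *Itpr2* was not low in precursors, at 443.1 CPM pooled in OPC-like nuclei with further markers and 400.3 CPM in the *Pdgfra* class. COP sums were at 1.18-fold of those OPC-like nuclei. The other large falls were *7630403G23Rik*, *Slc7a15*, *5033421B08Rik*, *Gm36855*, *Hba-a1*, *Cldn14*, *Gm816*, *Nipal4*, *Olfml1*, *Insc* and *Masp1*.

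**Figure D3:**
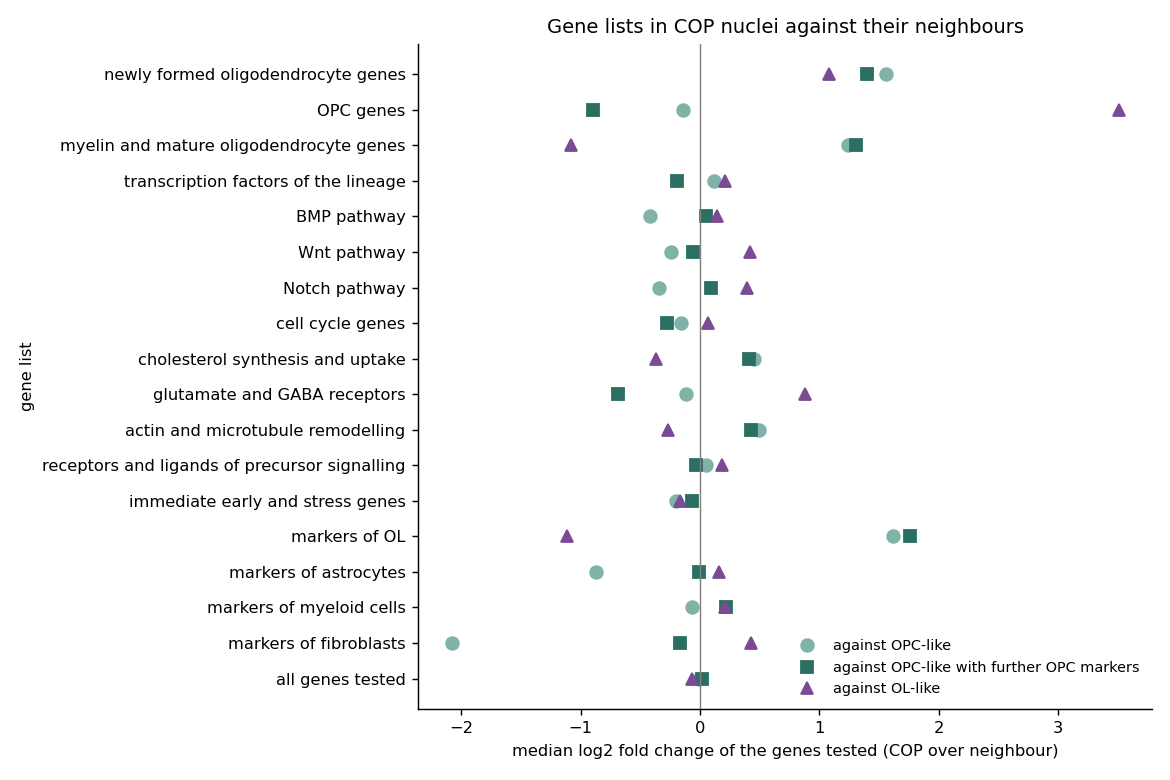
Median log2 fold change (x axis) of the genes tested in each gene list (y axis), COP sums over the neighbouring nuclei, for 3 choices of neighbour. Newly formed OL genes lie to the right of 0 for all 3, OPC and myelin genes change side with the neighbour, and all genes tested lie between -0.07 and 0.02. The list of newly formed OL genes holds *Lims2*, which overlaps *Gpr17*, a gene of the rule. The limits on *Pdgfra* and *St18* that set the groups bear on these lists.

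A set of 149 genes was higher in COP nuclei than in both neighbours, of 7756 tested in both fits (1.92%), and 160 were lower than both (2.06%). *Fyn* was 1633, 310.8, 789 and 507.5 CPM in COP sums of controls 1 to 4 and 1146, 675.7, 487.8 and 792.1 CPM in cKO 10 to 13. OPC-like sums averaged 150.8 ± 21.7 CPM and OL-like sums 79.4 ± 5.98 CPM. Every COP sum lay above both, though the COP sums varied widely among themselves.

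The 20 genes of this set with the largest smaller fold change, among those with at least 50 CPM, were *Gm13187*, *9630013A20Rik*, *Fyn*, *Gm32743*, *Tmem108*, *9530059O14Rik*, *Frmd4a*, *Arhgap24*, *4932413F04Rik*, *Kazn*, *Parvb*, *Tmem163*, *D430041D05Rik*, *Gm16364*, *Ptpro*, *Col20a1*, *4933423P22Rik*, *Shisal1*, *Dock4* and *5830418P13Rik*. *Frmd4a* and *Kazn* encode scaffold proteins, *Parvb* a focal adhesion protein, *Ptpro* a receptor tyrosine phosphatase, *Tmem163* a zinc transporter, and *Arhgap24* and *Dock4* regulators of Rac. Of the 20, 8 are annotated as long noncoding RNAs, and 7 overlap another of the 20.

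These overlaps form 3 loci of the GRCm39 genome. *Fyn* (chromosome 10, 39244851 to 39442227, plus strand) meets *Gm16364* (39434492 to 39489916, minus strand) at its end. *Gm13187* (chromosome 2, 4292406 to 4305978, minus strand) lies inside *Frmd4a* (4022528 to 4618854, plus strand). *Gm32743* (chromosome 9, 103398986 to 103423176) and *4932413F04Rik* (103434250 to 103480046), both on the plus strand, lie inside *Tmem108* (103360134 to 103639128, minus strand). The strand setting of the authors' counting is not given in the sources used here, so the reads of such partners may not be cleanly divided, and the 20 genes are fewer independent signals than their number.

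Divided by class, most of this set was found where *St18* was present without *Pdgfra* (a description, since the classes were formed afterwards). Among the OPC-like nuclei with further markers, the 3 larger COP classes and the OL-like nuclei, the pooled CPM was highest in the *St18* class for 120 of the 149 genes and in the *Pdgfra* class for 21. It was highest in the class with both genes for 4, in OPC-like nuclei for 4 and in OL-like nuclei for 0. The *St18* class lay above both neighbours for 133 of the 149 genes and the *Pdgfra* class for 101. The class with both genes lay between the neighbours for 104, above them for 44 and below for 1.

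*Fyn* is an example. In the *St18* class it was 3831, 764.9, 1490 and 2784 CPM in controls 1 to 4 and 2115, 2232, 1080 and 1913 CPM in cKO 10 to 13. The class with both genes gave 1099 CPM in control 1 and 88.6 to 297.8 CPM in the other libraries. The *Pdgfra* class ran from 101.4 to 446.5 CPM, and OPC-like nuclei with further markers from 138.7 to 235.8 CPM. In each of the 8 libraries the *St18* class was the highest of these and the OL-like sums. The same order in 8 of 8 libraries held for 13 of the 20 genes, for *Bcas1* and for *Tcf7l2*. Exceptions were *Arhgap24*, *4932413F04Rik* and *Gm16364* (7 libraries), *Ptpro* and *4933423P22Rik* (6), and *Col20a1* and *Shisal1* (4).

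*Bcas1* pooled to 2427 CPM in the *St18* class, 852.6 CPM in the *Pdgfra* class and 673.3 CPM with both genes, against 543.6 CPM in OL-like nuclei. *Frmd4a* was at 2544, 311.6 and 290.9 CPM in that order, and *Tmem108* at 1610, 393.8 and 266.0 CPM. *Tcf7l2* was at 645.4, 151.5 and 119.0 CPM, though astrocyte-like nuclei had 316.3 CPM of it. The lncRNA *9630013A20Rik* was at 600.4, 112.5 and 56.9 CPM, with 3.17 CPM in astrocyte-like nuclei. One *St18* nucleus held 75697 UMIs, and without it *Fyn* in the class was 1854 CPM in place of 1694 CPM.

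On OPC and myelin genes the other classes lay close to a neighbour or between the neighbours. The *Pdgfra* class had 2512 CPM of *Pcdh15*, 1742 CPM of *Vcan* and 2402 CPM of *Ptprz1*, beside 2223, 1682 and 2278 CPM in OPC-like nuclei with further markers. Besides the genes of the rule, others stood higher there, such as *Bcas1* at 852.6 against 462.4 CPM and *Arhgap24* at 344.1 against 201.8 CPM. The class with both genes lay between those OPC-like and the OL-like sums in 8 of 8 libraries for *Mbp*, *Pcdh15*, *Ptprz1*, *Vcan*, *Tnr* and *Piezo2*. *Enpp6* did so too, but it is a gene of the rule and supports nothing. *Pcdh15* and *Vcan* helped choose the OPC-like nuclei with further markers, so their place here supports nothing either. The class with both genes was also the deepest and the one most often marked by Scrublet. The *St18* class had *Tnr* at 4169 CPM and *Vcan* at 528.7 CPM, while *Pcdh15* was at 233.4 CPM and *Mbp* at 2658 CPM.

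Checked against its markers, the name COP held at most in part, and these values describe the classes without testing it. The genes of the rule cannot support it, since they chose the members. The 149 genes, *Fyn* among them, were picked from these same sums for being higher in COP nuclei. Their counts by class are therefore a description and no support for the name. The *St18* class carried young OL genes such as *Fyn*, *Bcas1* and *Tcf7l2* above both neighbours in every library. These genes were higher than both neighbours in the COP sums as well, and the classes were formed afterwards. Their order by class is therefore also a description and no support. The *Pdgfra* class lay close to OPC-like nuclei with further markers on *Ptprz1*. It also did on *Pcdh15* and *Vcan*, but these genes helped choose those OPC-like nuclei and support nothing. By pooled CPM the *Pdgfra* class still lay above both neighbours for 101 of the 149 genes and was highest for 21. The class with both genes lay between the neighbours for 104 of the 149 genes by pooled CPM and above both for 44. By library, *Fyn* lay between them in 5 of 8 and *Bcas1* in 3 of 8.

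**Figure D4:**
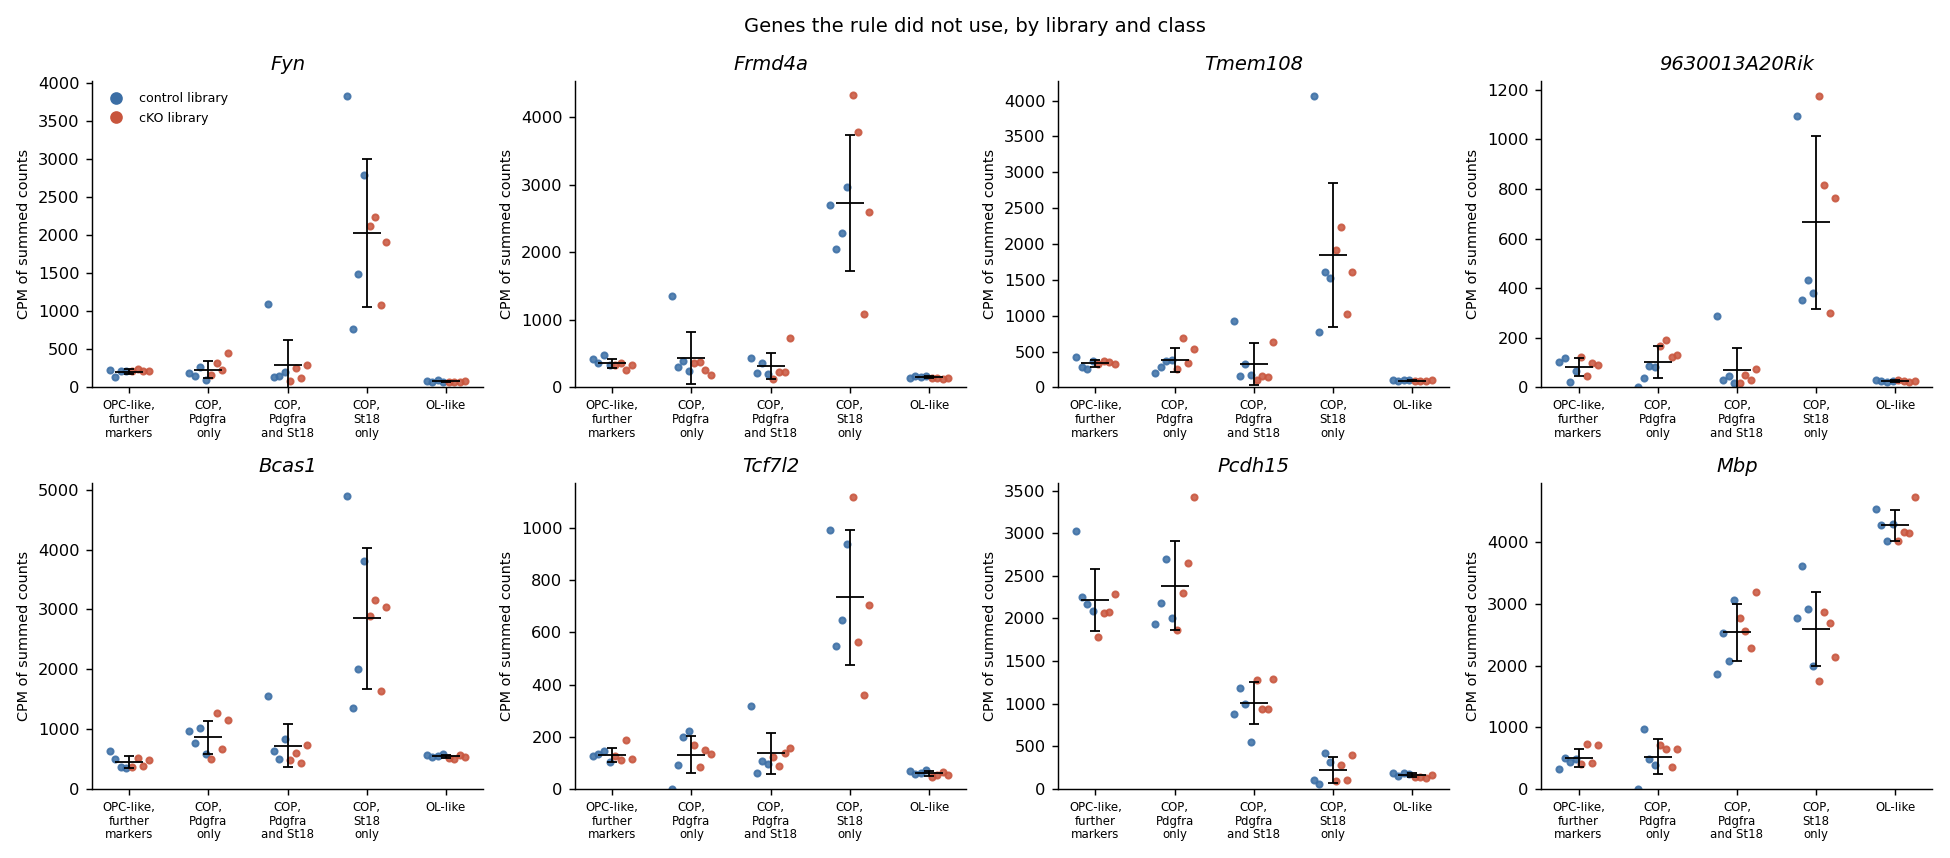
CPM of the summed counts (y axis) of 8 genes the rule did not use, in OPC-like nuclei with further OPC markers, 3 classes of COP nuclei and OL-like nuclei (x axis). Each point is 1 library (n = 8) and the bars are the mean ± SD. *Fyn*, *Frmd4a*, *Tmem108*, *9630013A20Rik*, *Bcas1* and *Tcf7l2* are highest with *St18* alone in all 8 libraries, while *Pcdh15* is high in OPC-like nuclei and the *Pdgfra* class and *Mbp* in OL-like nuclei. *Pcdh15* is a gene that helped choose the OPC-like nuclei with further OPC markers. The *Pdgfra* class of control 1 is 1 nucleus.

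The count of genes higher than both neighbours was larger without the members in doubt. Without the flagged members 326 genes were higher than both (and 360 lower), 128 of the 326 among the 149. The neighbours kept their flagged nuclei in that fit. Without the class with both genes the count was 236, sharing 135. With the neighbours nearest to the members in UMIs in each library 128 genes were called, 101 of them shared. The OL-like nuclei so chosen reached the depth of the members, but the OPC-like ones had library medians of 4120 to 5703.5 UMIs, against 5000.5 to 7814 in COP nuclei. With OPC-like nuclei limited to those with further markers it was 77, 65 of them shared, and 16 of the 20 named genes were called there.

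For the gene lists that follow, the shares over all genes are the background. They were 13.2% higher and 14.8% lower against OPC-like nuclei, 14.2% and 14.9% with the further markers, and 14.7% and 12.9% against OL-like nuclei. A count within 2 genes of what these shares give is no result about a list. The limits on *Pdgfra* and *St18* that set the groups also bear on these lists, and COP levels average over unlike classes. No count below is read as a gain or loss on commitment.

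Lineage transcription factors were higher than in OPC-like nuclei in 10 of 26 tested and lower in 3 (median 0.12), the latter near the background. *Myrf*, the regulator that switches on myelin genes, was 99.6 ± 22.8 CPM in COP, 24.1 ± 17.2 CPM in OPC-like and 159 ± 10.8 CPM in OL-like sums. Its log2 fold change was 2.04 against the former and -0.75 against the latter. *Nkx2-2*, a homeodomain factor of the step from OPC to OL, was higher than in both (1.32 and 1.23), but with the further markers it was at 0.44 and not called. *Sox4*, also called in both (0.55 and 2.74), was at -0.04 there. *Zfp536* and *Nkx6-2* rose from OPC-like and were lower than in OL-like nuclei. Limited to further markers, 5 of 23 were higher and 5 lower, the latter *Sox5*, *Olig2*, *Olig1*, *Prrx1* and *Nfib*, both near the background. Against OL-like nuclei 7 of 28 were higher and 3 lower, the latter near the background.

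In the BMP pathway, whose ligands hold back OL differentiation, 2 of 16 tested were higher than in OPC-like nuclei and 7 lower, where the count of higher genes is near the background. The higher ones were *Smad7* (1.29), encoding an inhibitory Smad that favours differentiation, and *Smad1* (0.53). Among the lower ones were *Id1*, *Id2*, *Id3* and *Id4*, encoding inhibitors of helix-loop-helix factors, and the receptor genes *Bmpr1a* and *Bmpr1b*. With the further markers 2 of 14 were higher (*Smad7* at 1.85 and *Smurf1*) and 2 lower (*Bmp7* and *Acvr2a*), near the background in both directions. *Id3* and *Id4* were tested there and not called, while *Id1* and *Id2* were not tested. Against OL-like nuclei 3 of 20 were higher and 1 lower, which was *Smad7* (-1.01), both counts near the background. *Smad7* was at 74.4 ± 17.8, 175 ± 56.2 and 327.1 ± 78.4 CPM in OPC-like, COP and OL-like sums. Its COP level is an average over unlike classes.

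In the Wnt pathway 3 of 13 tested were higher than in OPC-like nuclei (*Daam2*, *Tcf7l2* and *Apc*) and 1 lower (*Dkk3*), which is near the background and no result about the pathway. *Daam2*, encoding a formin that acts in Wnt signalling, was at 1.32, and at 2.56 with the further markers. There 4 of 13 were higher and 1 lower, the latter near the background. Against OL-like nuclei 6 of 17 were higher and 2 lower, the latter near the background. *Axin2*, a target gene of the pathway, was lower than in OPC-like nuclei with further markers and higher than in OL-like nuclei. In the Notch pathway 0 of 8 were higher and 2 lower (*Notch2* and *Jag1*) against OPC-like nuclei, near the background. *Notch1*, the receptor through which axonal ligands restrain precursors, was at -0.91 with the further markers, where 1 of 7 was higher (*Notch2*, opposite to its direction against all OPC-like nuclei) and 2 lower, again near the background. It was at 2.25 against OL-like nuclei, where 5 of 12 were higher.

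Few cell cycle genes passed the filter on low counts. Of 29 listed 4 were tested against OPC-like nuclei, with none called. *Ccnd1*, encoding cyclin D1, was 98.5 ± 26.4 CPM in COP and 232.8 ± 56.1 CPM in OPC-like sums with further markers, a log2 fold change of -1.22 (SE 0.13). It was the 1 of 3 tested that was lower there. Against OL-like nuclei it was the 1 of 11 that was higher (2.34), and *Pcna* was lower. These counts are near the background. At least 2 UMIs in 2 proliferation genes were found in 4 COP nuclei (1.22%), in 24 OPC-like (2.10%) and in 27 OL-like nuclei (0.167%), at unequal depth.

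Cholesterol synthesis, on which myelin membrane depends, was higher than in OPC-like nuclei in 6 of 15 tested, with none lower and 15 of 15 above 0 (median 0.45). They included *Lss*, *Fdft1*, *Fdps*, *Msmo1* and *Hmgcs1*. *Hmgcs1*, encoding an early enzyme of the path, was 162.1 ± 38.3, 228.4 ± 56.7 and 341.9 ± 90.6 CPM in OPC-like, COP and OL-like sums, where the groups overlapped. With the further markers 4 of 13 were higher. Against OL-like nuclei 8 of 23 were lower, with none higher and a median of -0.37.

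Receptors for glutamate and GABA, through which precursors sense axons, were lower in 11 of 19 tested and higher in 1 (*Grm3*, 2.51) against OPC-like nuclei with further markers (median -0.69). *Grm5* (-1.35), *Gria3* (-0.98) and *Gria4* (-0.93) were among those lower. The group limits bear on this count as on that of the OPC genes. *Grm5* pooled to 1052 CPM with *Pdgfra* alone, 83.9 CPM with *St18* alone and 385.7 CPM with both. It was at 999.4 CPM in those OPC-like nuclei. *Gria2*, encoding the AMPA receptor subunit that limits calcium entry, was at -0.35 and not called. Against all OPC-like nuclei 5 of 19 were higher and 3 lower, the latter near the background. Against OL-like nuclei 15 of 25 were higher and 4 lower, the latter near the background, with *Gria2* at 819.1 ± 315 against 30.1 ± 11.8 CPM.

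Genes of actin and microtubule remodelling were higher than in OPC-like nuclei in 15 of 30, and 1 was lower (*Tns1*), with a median of 0.49. With the further markers it was 13 of 29 and none. Besides *Fyn* these included *Mapt* (1.62), encoding tau, *Map1b* (1.40), *Tppp* (1.18), encoding a tubulin polymerizing protein of OLs, and *Ptk2* (0.98), encoding focal adhesion kinase. Against OL-like nuclei 7 of 30 were higher and 9 lower. *Map1b* was higher than in both neighbours, at 351.5 ± 146 CPM against 134.9 ± 21.6 and 195 ± 21.0 CPM, while *Mapt* and *Tppp* were lower than in OL-like nuclei. Pooled *Mapt* was 428.5 CPM with *Pdgfra* alone, 1016 CPM with *St18* alone and 930.1 CPM with both genes. OPC-like nuclei with further markers pooled to 381.9 CPM. The rise of *Mapt* is thus tied to the limit on *St18*.

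Among other receptors and ligands of precursor signalling 3 of 23 were higher and 6 lower than in OPC-like nuclei, where the former is near the background. Limited to further markers, 4 of 18 were higher (*Lpar1*, *Gpr37*, *Plxnb3* and *Pdgfa*) and 3 lower (*Adgrg1*, *Sema3d* and *Erbb4*), both near the background. Against OL-like nuclei 10 of 24 were higher and 5 lower, the latter near the background. *Gpr37*, encoding a receptor that restrains OL maturation, was intermediate at 62.1 ± 15.6, 117 ± 53.0 and 236.5 ± 49.0 CPM in OPC-like, COP and OL-like sums. The COP level is an average over unlike classes. They pooled to 49.8 CPM with *Pdgfra* alone, 136.1 CPM with *St18* alone and 151.0 CPM with both. Of the immediate early and stress genes 0 of 5 were higher and 1 lower than in OPC-like nuclei, near the background, with none called with the further markers. Against OL-like nuclei 1 of 11 was higher (*Nr4a1*), near the background, and 4 lower. *Hbb-bs*, a haemoglobin gene whose transcripts come from blood, was also lower in COP sums than in both neighbours (-1.22 and -1.23).

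*Piezo2*, encoding the mechanosensitive channel that the study deleted, was intermediate between OPC-like and OL-like nuclei. COP sums held 214.5, 162.0, 166.2 and 230.7 CPM in controls 1 to 4 and 121.1, 243.6, 211.8 and 256.2 CPM in cKO 10 to 13. All of them were below the OL-like sums, which averaged 456.9 ± 64.8 CPM (log2 fold change -1.26, SE 0.097, edgeR adjusted p = 2.92e-12). They were above those of OPC-like nuclei with further markers (28.1 ± 16.2 CPM, log2 fold change 2.84). Against all OPC-like nuclei (149.2 ± 25.3 CPM) it was 0.52, and 0.18 with the OPC-like nuclei nearest to the members in UMIs, which was not called. By class it was 23.8 CPM with *Pdgfra* alone, 205.4 CPM with *St18* alone and 268.7 CPM with both, beside 80.6 CPM in astrocyte-like nuclei. In members with under 3 UMIs of *St18* it was lower than in all OPC-like nuclei, which are mixed, at -2.49. That fit was not made with the further markers. Their level of 28.1 ± 16.2 CPM lay beside the 23.8 CPM of the *Pdgfra* class. The channel gene thus followed *St18* within the members. *Piezo1* was too low to be tested in COP sums.

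The last comparison was between genotypes, and asks whether COP nuclei were more or fewer, or expressed other genes, in the libraries labelled cKO. The share of COP among all nuclei was 0.308%, 0.818%, 0.925% and 0.867% in controls 1 to 4 and 0.629%, 1.11%, 1.20% and 0.647% in cKO 10 to 13. The means were 0.729 ± 0.284% and 0.898 ± 0.303% (SD, n = 4 each), and the groups overlapped. The difference of 0.169 percentage points had an exact two-sided permutation p of 0.429 (0.829 adjusted over 2 tests), where 4 against 4 libraries cannot go below 0.0286. Of the OL lineage, COP nuclei were 1.81 ± 0.768% and 1.97 ± 0.440% (exact permutation p = 0.829). Wilson intervals of single libraries, which cover counting error only, ran from 0.195 to 0.486% in control 1 and from 0.920 to 1.58% in cKO 12.

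Control 1 weighed on both shares. Without it the difference among all nuclei was 0.0284 points, and that within the lineage turned to -0.206 points (exact permutation p = 0.457). With the flagged members left out of the COP count and the totals unchanged, the share was 0.241 ± 0.0383% in control and 0.431 ± 0.121% in cKO libraries. It ranged from 0.215 to 0.298% and from 0.286 to 0.533%. The exact permutation p was 0.0571 there, and the groups still overlapped. Within the lineage the difference was then 0.349 points in place of 0.157, with 0.602 ± 0.171% and 0.951 ± 0.180% (exact permutation p = 0.0571). With nuclei thinned to 1000 UMIs the exact permutation p was also 0.0571 for both shares, at differences of 0.0178 points of all nuclei and 0.0802 points of the lineage, but only 1 to 4 COP nuclei were then left in a library.

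No gene was called by genotype within COP sums in the main fit. With no filter on low counts 34 were, and with 1 library left out 0 to 3. Of 6070 genes tested 0 passed by edgeR (0%), where 257 had an unadjusted p under 0.05. DESeq2 also called 0, of 14257, where 255 had an unadjusted p under 0.05. The libraries held 18 to 78 members. The same fit called 5 of 15639 genes in OL-like sums and 0 of 8883 in OPC-like sums, where 561 had an unadjusted p under 0.05. Whether depth sets the count in COP sums was not tested. In all the lists above 0 genes were called, and the medians ran from -0.13 to 0.15. The genes the study names by genotype in OLs were all tested and none passed: *Lama2* had a log2 fold change of -0.35, *Cacna2d3* of -0.26 and *Pde3a* of 0.25. *Olig2*, the gene that carries the cre and is intact in only 1 allele in the cKO mice, was at 0.44 and did not pass either. *Piezo2* was 193.3 ± 34.4 CPM in control and 208.2 ± 60.9 CPM in cKO libraries, a log2 fold change of 0.15 (SE 0.224).

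The rule genes are given as a description, since the members were chosen on their UMIs. Between genotypes *Gpr17* was at 0.01, *Bmp4* at 0.01, *Enpp6* at 0.28 and *Neu4* at 0.57 on the log2 scale. *Neu4* was 235.2, 175.2, 198.5 and 171.4 CPM in controls 1 to 4 and 274.9, 278.1, 279.5 and 310.1 CPM in cKO 10 to 13. The groups did not overlap, though *Neu4* did not pass the test. How many of the 6070 genes tested had groups without overlap was not counted.

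**Figure D5:**
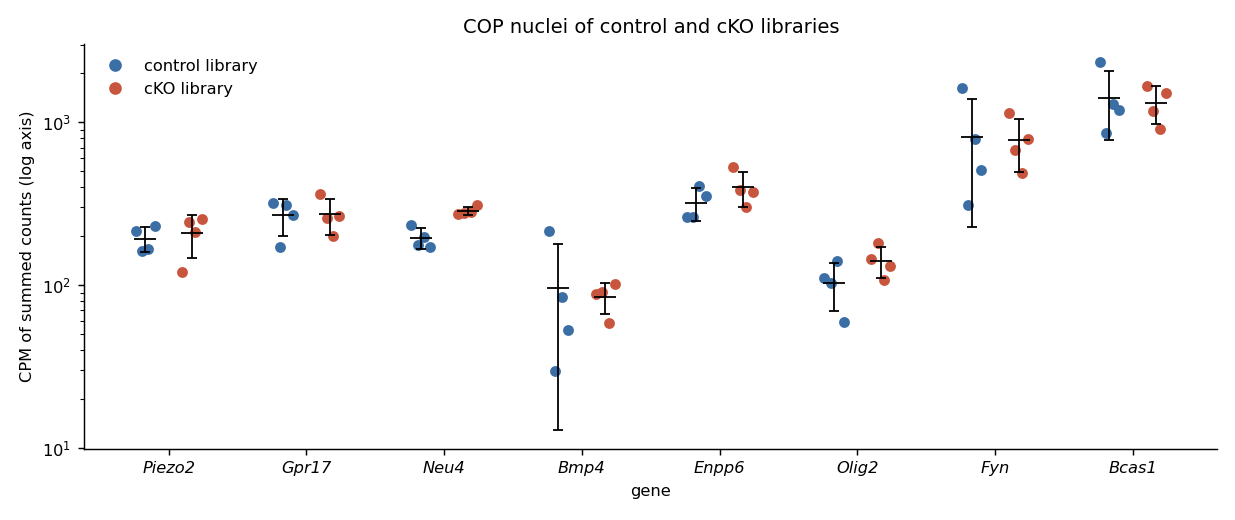
CPM of the summed counts of COP nuclei (y axis, log scale) for 8 genes (x axis) in control and cKO libraries. Each point is 1 library and the bars are the mean ± SD (n = 4). Control and cKO points overlap for all but *Neu4*, a gene of the rule, and no gene passed the test.

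The 5 genes nearest to the threshold were *Slc6a20a* (log2 fold change 1.95), *Emid1* (1.38), *Gm33255* (1.32), *Ndst3* (-1.66) and *Hbb-bs* (-1.27), all with an edgeR adjusted p of 0.409. *Slc6a20a*, encoding a proline transporter that is also among the fibroblast-rich falls above, was 3.31 to 41.5 CPM in control and 46.6 to 67.6 CPM in cKO libraries. The full list of fibroblast markers, given above, did not overlap between the groups, and *Trpm3* held most of it in the cKO libraries. Without *Trpm3* (chosen after its values were seen) the markers summed to 152.2 to 306.5 CPM in control and 240.4 to 494.9 CPM in cKO COP sums. These ranges overlapped, and the part of the fibroblast markers in the result was not tested. *Ndst3*, encoding an enzyme of heparan sulphate modification, was 75.8 to 152.2 CPM in control and 14.2 to 67.4 CPM in cKO libraries. *Gm33255*, a lncRNA on chromosome 16 that overlaps *4930420G21Rik* on the other strand, was 27.7 to 72.7 CPM in control and 97.8 to 179.1 CPM in cKO libraries.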

How the data were processed

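The deposited matrices hold whole-number UMI counts per gene and barcode for 8 libraries, unnormalized. The authors made them from 10x 3' snRNA-seq libraries. The submitters' processing notes name Cell Ranger 7.0.0 and GRCm39, while the file headers name Cell Ranger 4. The intron setting of the counting is not given in the sources used here. Barcodes with at least 1000 UMIs and under 5% mitochondrial UMIs were kept, and 355 were removed by the latter limit. COP, OPC-like and OL-like nuclei were chosen by the rules given in the report. Counts were summed by library and group, which makes the library the replicate. The sums were normalized by TMM, filtered with filterByExpr and tested with edgeR 4.0.16 (quasi-likelihood, two-sided, library as a block, Benjamini-Hochberg over all genes tested). Genes of the rule and of the group limits and mitochondrial genes were dropped before adjustment, except between genotypes. A block was apt because COP and neighbour sums of a library come from the same nerves, and their deviations correlated at 0.145 to 0.587. P-values measure the spread between pools. Shares were compared by exact permutation over libraries. CPM values are of the sums, unadjusted for gene length.

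The members, the gene lists and the marker lists were chosen with earlier results of these data known. The genes named are the rule genes, members of the lists, the 12 largest calls in each direction (at least 50 CPM in either group), the 20 leading genes higher than both neighbours, and the 5 smallest p-values by genotype with the genes the study names and *Olig2*. Others named by class were chosen after their values were seen. Gene positions are from the GENCODE annotation of GRCm39, where 441 of 441 IDs matched. The edgeR steps were tested on simulated data. Alternatives included DESeq2 1.42.0, RLE size factors, no filter on low counts, thinning to 1000 UMIs and leaving out each library. Another left out flagged members (Scrublet in scanpy 1.11.5 and marker genes), but not flagged neighbours. The study removed likely doublets in its own analysis. The nuclei here were not so filtered.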

Additional observations from a re-analysis of the deposited data

Results flagged for a closer look

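In 8 of 54 groups of libraries checked, 1 library stood apart from the rest by Dixon's test, where chance flags about 1 in 20. In COP sums of all libraries, control 1 was highest for *Kazn* (4088 CPM, others 1051 to 1803), *Arhgap24* (906.2 CPM, others 244.6 to 519.1), *Shisal1* (159.1 CPM, others 35.6 to 69.9) and *Col20a1* (131.4 CPM, others 17.8 to 70.8). That library had the fewest members, 18, of which 6 had *St18* without *Pdgfra*. The library cKO 10 was highest for *Frmd4a* (2171 CPM, others 510.8 to 1203) and *Parvb* (121.1 CPM, others 37.7 to 59.3), and 43.3% of its members had *St18* alone, the highest share of the 8 libraries. Within the controls *Emid1* was low in control 1 (6.92 CPM, others 24.8 to 26.4), and within the cKO libraries *Neu4* was high in cKO 13 (310.1 CPM, others 274.9 to 279.5).

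The difference between genotypes itself differed between COP and OL-like sums for 4 of 14521 genes tested, by an edgeR interaction term. With OPC-like sums in place of OL-like sums the term called 0 of 9173, where 437 had an unadjusted p under 0.05. It was 2.50 for *Trpm3* on the log2 scale (adjusted p = 6e-07), 2.14 for *Ranbp3l* (adjusted p = 0.000864), 1.37 for *Pde1a* (adjusted p = 0.0282) and 2.40 for *Nrg1* (adjusted p = 0.0282). *Trpm3*, an ion channel gene among the fibroblast markers, was 83.0, 95.9, 655.1 and 105.5 CPM in control and 731.5, 810.8, 1024 and 940.4 CPM in cKO COP sums. Without the members that had both *Pdgfra* and *St18* it was 44.2, 55.9, 268.4 and 1585 CPM in cKO 10 to 13, so that 1 library then held the high value. The other fibroblast markers summed to 152.2 to 306.5 CPM in control and 240.4 to 494.9 CPM in cKO COP sums, which overlapped, and their part was not tested. *Nrg1*, a ligand of ErbB receptors, was at 0.22 between genotypes in COP and at -2.22 in OL-like sums, where control 3 alone had 240.1 CPM and the other libraries 3.89 to 43.0 CPM.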

How the results depend on the processing

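The count of genes that differed from OPC-like nuclei, 2169 as reported, was 599 with nuclei thinned to 1000 UMIs and 942 with members under 3 *St18* UMIs, where fewer genes were tested. Against OL-like nuclei it was 3667 as reported, 2033 thinned and, in an alternative chosen after seeing the data, 1152 with nuclei matched for UMIs, again with fewer genes tested. Genes higher than both neighbours, 149 as reported, were 326 without flagged members, where the neighbours kept their flagged nuclei. They were 236 without members with both *Pdgfra* and *St18* and 77 with further OPC markers (these 2 chosen after seeing the data). They were 89 thinned, 95 in control libraries only and 80 with OPC-like nuclei from at least 2 *Pdgfra* UMIs. By genotype 34 genes were called with no filter on low counts, 3 without control 3, 1 without cKO 12, 3 without cKO 13 and 0 without each other library. The causes were not tested unless fewer genes tested is named. Leaving out 1 library at a time gave 2019 to 2261 calls against OPC-like nuclei, 3434 to 3809 against OL-like nuclei and 132 to 157 higher than both. It gave differences between genotypes of 0.0284 to 0.259 points of all nuclei and of -0.206 to 0.385 points of the lineage, the lowest without control 1, where the direction reversed. *Cped1* against OPC-like nuclei with further markers reversed to 0.19, and *Piezo2* by genotype without members with both genes to -0.0043 on the log2 scale. Without the replicate block, which pairs the sums of a library, 2049, 3509 and 134 genes were called, and 133 of the 134 were among the 149. The 2 genotypes share no replicate numbers, so no block applied there. Of the named genes' values under all alternatives, 831 of 832 against OL-like nuclei, 752 of 760 against OPC-like nuclei and 123 of 131 between genotypes kept their direction and their side of the threshold. The remaining 8 between genotypes were 7 that passed it and the reversal of *Piezo2*. These counts hold only values of genes tested under an alternative, and 9 of the 20 leading genes were tested with thinned nuclei. The genes compared with neighbours were named for large folds in the main fit, so most were likely to keep their side. Members numbered 18 to 78 in a library.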
